A study of Homo with 4 samples.

Results

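The IGF2BP family comprises IGF2BP1, IGF2BP2 and IGF2BP3. Its 3 genes, among 20263 in the count table, were found by Ensembl identifier and by position on GRCh38. They hold 9 of the 95139 transcripts listed, namely 2 of IGF2BP1, 4 of IGF2BP2 and 3 of IGF2BP3. RNA-seq was performed in H1299, a line from a human lung carcinoma, after lentiviral delivery of a control hairpin (shCtrl, genotype label WT, n = 2) or a hairpin against IGF2BP3 (shIGF2BP3, genotype label IGF2BP3 knockdown, n = 2). All 4 cultures were kept in the same medium with serum. The labels number the libraries of each group 1 and 2 as biological replicates, while the header of the count table gives shIGF2BP3 the numbers 2 and 3, and whether both libraries carry the same hairpin is not stated. The comparison asks how the target, each of its isoforms and its paralogs were expressed after the knockdown.

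IGF2BP proteins bind RNA through RNA recognition motifs followed by KH domains. They are best known for holding target mRNAs in cytoplasmic granules, where the messages are protected from decay, and they are counted among the readers of N6-methyladenosine. IGF2BP1 and IGF2BP3 are oncofetal genes, largely silent in adult tissue and active again in many tumors, whereas IGF2BP2 remains expressed in adult tissue. The mRNAs of the family are targets of the let-7 microRNAs.

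The libraries held between 29709686 and 34817513 estimated counts, and mitochondrial genes took 9.11% and 13.43% of them in shCtrl and 11.42% and 17.02% in shIGF2BP3. The cells are labelled epithelial. Of the 5 epithelial markers examined, KRT8 (771 CPM on average) and KRT18 (1220 CPM) were abundant, whereas KRT19, EPCAM and CDH1 stayed at or below 0.354 CPM in every library. Of 3 mesenchymal markers, VIM averaged 5420 CPM and was higher in both shIGF2BP3 libraries (adjusted p = 0.517 by edgeR), FN1 averaged 26.3 CPM and was lower in both (adjusted p = 0.558 by edgeR), and CDH2 averaged 33.6 CPM with overlapping groups. Of the abundant epithelial markers, KRT8 was lower in both shIGF2BP3 libraries (adjusted p = 0.566 by edgeR) and KRT18 overlapped. Of all genes tested, 23.5% were lower and 23.3% higher in both shIGF2BP3 libraries than in both controls. The parts of these markers in the results were not tested. The 3 fibroblast markers summed to at most 1.45 CPM, and the leukocyte and endothelial markers to at most 0.295 and 0.266 CPM.

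All 3 family members were expressed. Values are CPM, counts scaled to a common library size after TMM adjustment for RNA composition, or FPKM as deposited, which also divides by transcript length. By FPKM, the scale on which different genes may be compared, IGF2BP2 was the highest member at 17.8 ± 2.51 FPKM in shCtrl (SD, n = 2), followed by IGF2BP1 at 12.4 ± 1.83 and IGF2BP3 at 8.32 ± 1.96. In shIGF2BP3 the order was the same, at 19.1 ± 0.469, 10.7 ± 2.06 and 5.09 ± 0.441 FPKM. In each of the 4 libraries IGF2BP2 exceeded IGF2BP1 and IGF2BP1 exceeded IGF2BP3. The mean FPKM over the 4 libraries placed IGF2BP2 above 83.6%, IGF2BP1 above 77.4% and IGF2BP3 above 69.0% of all listed genes. Summed over the family, FPKM was 43.0 and 34.1 in shCtrl and 37.1 and 32.9 in shIGF2BP3, so the group ranges of the total overlapped.

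**Figure D1:**
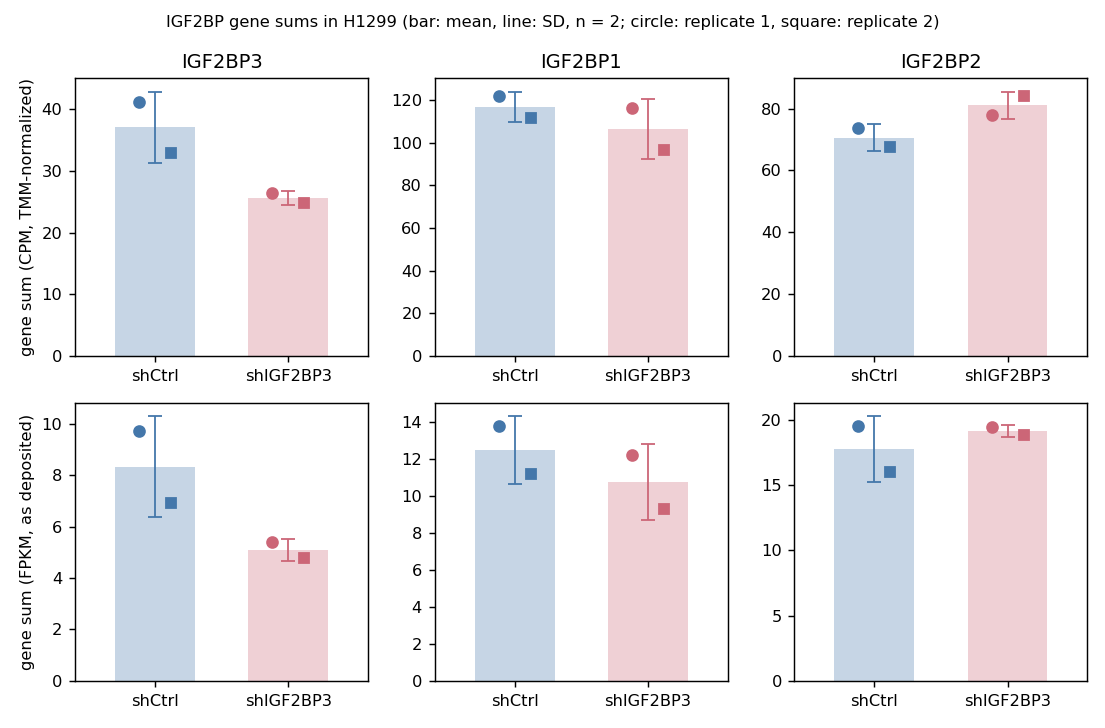
Gene sums of IGF2BP3, IGF2BP1 and IGF2BP2 in CPM (upper row) and FPKM (lower row) for shCtrl and shIGF2BP3, with bars for the mean, lines for the SD (n = 2) and 1 point per library. IGF2BP3 is lower in both shIGF2BP3 libraries on both scales, IGF2BP1 overlaps between the groups, and IGF2BP2 is higher in both shIGF2BP3 libraries in CPM only.

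IGF2BP3 (ENSG00000136231), the targeted gene, lies on the minus strand of chromosome 7 from 23310209 to 23470467. It received 1547 and 1116 counts under shCtrl against 912 and 682 under shIGF2BP3, which is 41.1, 32.9, 26.4 and 24.8 CPM in that order. Both knockdown libraries were below both controls, a placing shared by 23.5% of the 13379 genes tested. The knockdown level was 69.1% of control in CPM and 61.2% in FPKM. The log2 fold change was -0.53 (SE 0.17), and 7.77% of the tested genes had a more negative one. By edgeR's quasi-likelihood test the unadjusted p was 0.0244, and 5.12% of the tested genes were lower at an unadjusted p of no higher than 0.05. The adjusted p was 0.472 by edgeR, and the 1.45-fold difference lay under the fold threshold of 1.5. This call depended on the scaling and the tool. On library totals without TMM (log2 fold change -0.62, unadjusted p of 0.0375 by edgeR) and with limma on FPKM, at a pseudocount of 1 or 0.1 (-0.6 and -0.68, unadjusted p of 0.0261 and 0.0246), IGF2BP3 passed both the fold threshold and p, with adjusted p of 0.599, 0.465 and 0.48. The median log2 fold change of all genes was also lower in these fits, at -0.081, -0.07 and -0.081 in that order. With TMM it was -0.002. The part of this in the calls was not tested. IGF2BP3 mRNA was still measured in both knockdown libraries, at 5.4 and 4.78 FPKM. In bulk RNA, a knockdown in only part of the cells cannot be told apart from a partial knockdown in every cell.

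Without replicate 1 of shCtrl, the library with the highest IGF2BP3 value, the log2 fold change was -0.36, and without replicate 2 of shCtrl it was -0.68. Without replicate 1 or 2 of shIGF2BP3 it was -0.57 and -0.49. The last 1521 bases of the IGF2BP3 locus are shared with MALSU1, a mitochondrial ribosome assembly gene on the opposite strand (chromosome 7 from 23299200 to 23311729), and whether the counting used strand is not given in the sources used here. MALSU1 was at 33.1 and 33.7 CPM in shCtrl and 29.5 and 30.8 CPM in shIGF2BP3 (log2 fold change -0.15, SE 0.14, adjusted p = 0.697 by edgeR), and its part in the IGF2BP3 value was not tested.

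The 3 transcripts of IGF2BP3 differ in where they start. ENST00000258729 spans the whole locus and carried most counts. ENST00000421467 starts 12 bases further along and ends 1032 bases earlier. ENST00000619562 spans only 36578 bases (chromosome 7 from 23311127 to 23347704), since its start lies 122763 bases downstream of that of the leading transcript, and it ends 918 bases before it. The length implied by its count and FPKM was 50.3% to 50.8% of that of the leading transcript. Exon positions, and the proteins these transcripts encode, were not analysed here.

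**Figure D2:**
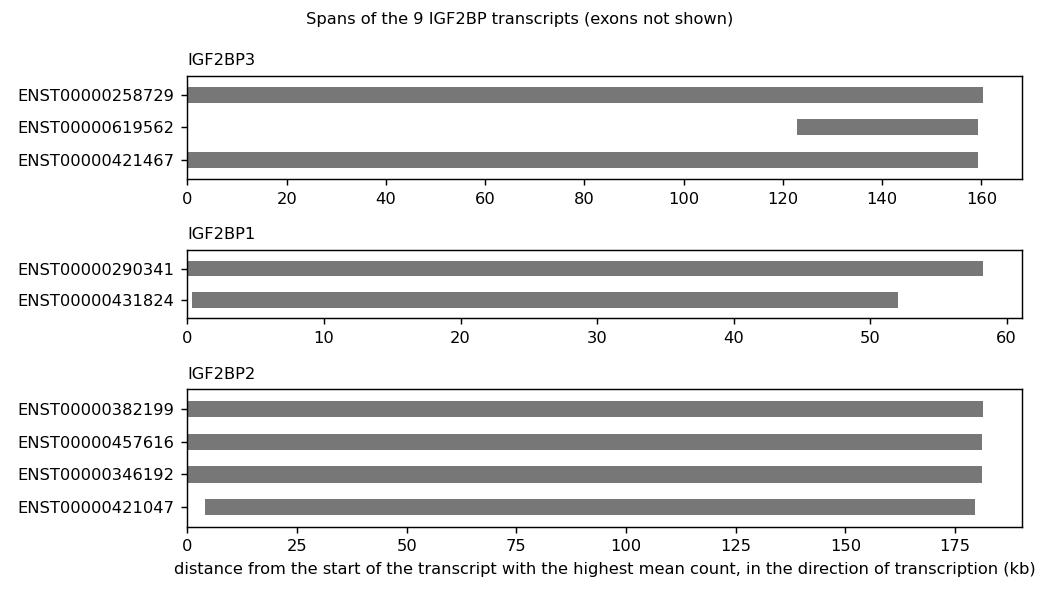
Spans of the 9 transcripts, in kb from the start of the transcript with the highest mean count of each gene and read in the direction of transcription. The start of ENST00000619562 lies 122763 bases into IGF2BP3, while the other transcripts start within 3925 bases of the leading one.

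The short IGF2BP3 transcript was measured mainly in the control libraries. ENST00000619562 held 145 and 92 counts under shCtrl but 0 and 20 counts under shIGF2BP3. Both knockdown libraries were thus below both controls, at 0 and 0.726 CPM against 3.86 and 2.72 CPM, a placing shared by 22.7% of the 37927 transcripts tested. The count of 0 allows up to 0.0869 CPM (3 counts). The mean in shIGF2BP3 was 11.1% of that in shCtrl. Its fitted log2 fold change of -3.17 had an SE of 2.08 and depends on the prior count where a library is at 0. With an unadjusted p of 0.215 and an adjusted p of 0.9 (edgeR), the difference did not exceed the spread that the fit assigned to transcripts. Over the alternatives with all 4 libraries the log2 fold change ran from -4.49 (replicate block) to -1.05 (limma on log2(FPKM + 1)), and in the latter it passed the fold threshold with an unadjusted p of 0.0211 (adjusted p = 0.472 by limma). Leaving out replicate 1 of shIGF2BP3 gave -2.13. Leaving out replicate 2 gave -9.86, which passed with an unadjusted p of 0.00699.

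The full-length transcript ENST00000258729 was at 1399 and 1022 counts in shCtrl and at 912 and 662 counts in shIGF2BP3. In CPM this was 37.2 and 30.2 against 26.4 and 24.0, with both knockdown libraries again below both controls. It remained at 74.9% of the control mean, and its log2 fold change was -0.40 (SE 0.23, adjusted p = 0.891 by edgeR). The full-length transcript accounted for 73.9% of the mean difference of the gene sum in CPM and the short transcript for 25.5%. ENST00000421467 was at 3 and 2 counts in shCtrl and at 0 in both shIGF2BP3 libraries, which is at or under 3 counts in every library, and it was not tested.

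**Figure D3:**
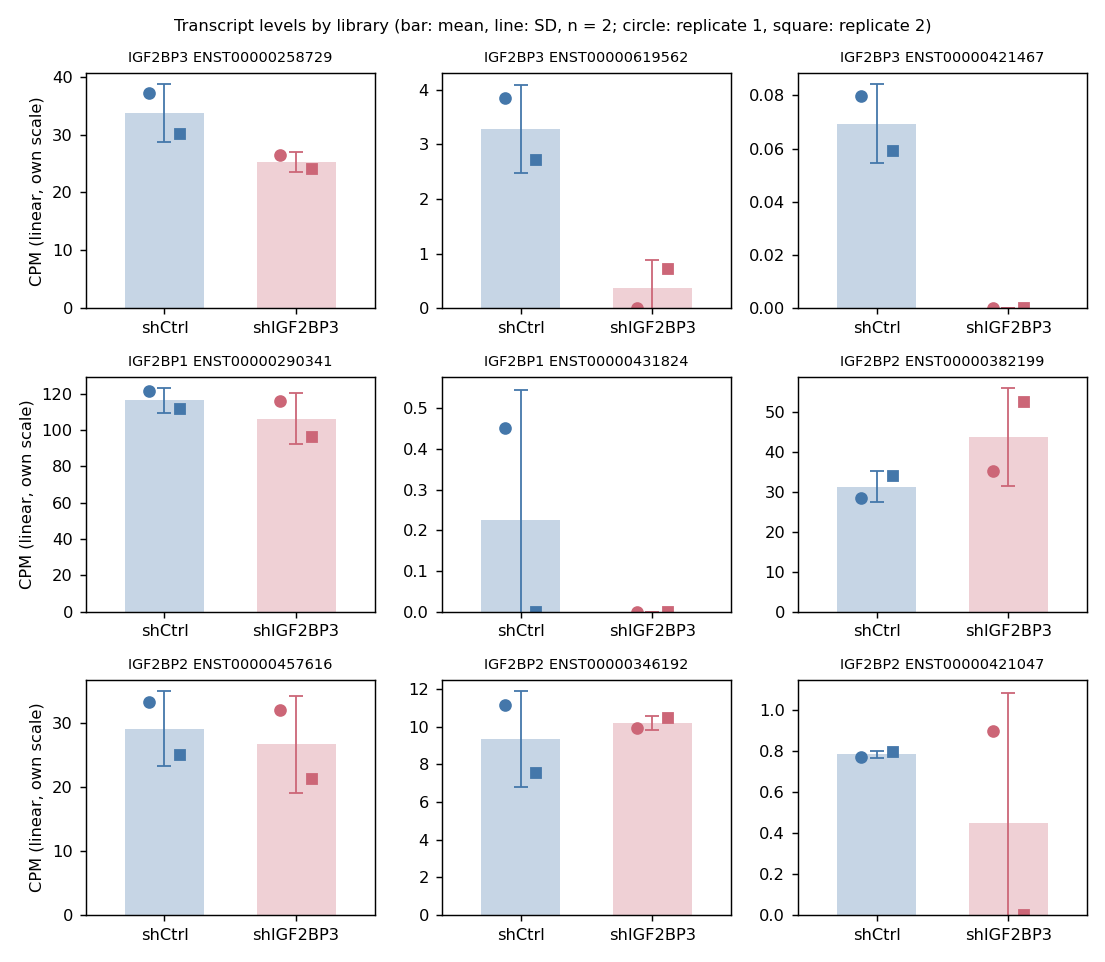
Levels of the 9 transcripts in CPM, each panel on its own linear scale from 0, with bars for the mean, lines for the SD (n = 2) and 1 point per library. ENST00000258729 and ENST00000619562 of IGF2BP3 lie lower, and ENST00000382199 of IGF2BP2 higher, in both shIGF2BP3 libraries than in both shCtrl libraries.

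Within IGF2BP3, the share of the short transcript was lower, and that of the full-length transcript higher, in both shIGF2BP3 libraries than in both controls. Of all transcripts in the usage test, 21.3% had such lower and 17.1% such higher shares, a background added after the data were seen. The short transcript made up 9.37% of the gene's count in replicate 1 of shCtrl (95% Wilson interval 8.02% to 10.9%) and 8.24% in replicate 2 (6.77% to 10.0%), so the controls agreed within counting error. In shIGF2BP3 it made up 0 of 912 counts in replicate 1, which allows a share of up to 0.329%, and 2.93% in replicate 2 (1.91% to 4.49%). These intervals cover counting error only. Its FPKM share stood at 17.1% and 15.1% under shCtrl against 0% and 5.61% under shIGF2BP3. The group means of the count share were 8.81% ± 0.799 and 1.47% ± 2.07 (SD, n = 2).

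Usage was tested with edgeR's diffSpliceDGE, which asks whether a transcript moved differently from the other transcripts of its gene. For the short transcript the log2 difference was -2.65 (adjusted p = 1.0 by edgeR's diffSpliceDGE), and for IGF2BP3 as a gene the adjusted p was 0.677 by edgeR, both from an unadjusted p of 0.162. Of the 33125 transcripts in this test, 4.51% had an unadjusted p of no higher than 0.05 and 0.83% an adjusted p under 0.05. No IGF2BP transcript was among either. In a count chosen after the data were seen, a transcript well counted in one library and listed at 0 in another was also found between replicates: of the 24484 transcripts with at least 50 counts in replicate 1 of shCtrl, 5.29% were at 0 in replicate 2 of shCtrl and 5.17% in replicate 1 of shIGF2BP3. Of the 20599 transcripts with at least 50 counts in both controls, 5.75% were at 0 in at least 1 shIGF2BP3 library. In the opposite direction it was 2.22% of 18200. Replicate 2 of shIGF2BP3 had the fewest counts and the fewest transcripts above 0, at 46102 against 50763 to 53265 in the others. Of 23092 transcripts with at least 50 counts in replicate 1 of shIGF2BP3, 7.35% were at 0 in replicate 2. The other way it was 3.29% of 20552. The part of this in the difference between directions was not tested.

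**Figure D4:**
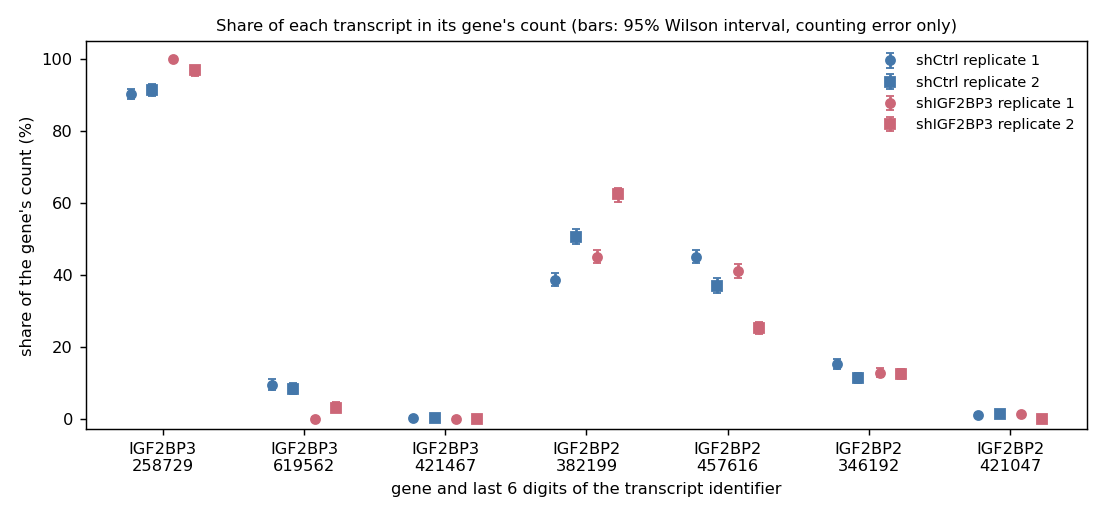
Share of each IGF2BP3 and IGF2BP2 transcript in its gene's count, in percent, with 95% Wilson intervals (counting error only) and 1 point per library. The short IGF2BP3 transcript ENST00000619562 lies at 9.37% and 8.24% in shCtrl and at 0% and 2.93% in shIGF2BP3, whereas the IGF2BP2 shares overlap between the groups.

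IGF2BP1 (ENSG00000159217), first described as a zipcode-binding protein of beta-actin mRNA and as a stabilizer of MYC mRNA, lies on the plus strand of chromosome 17 from 48997412 to 49055650. It was counted at 121.8 and 111.7 CPM in shCtrl and at 116.2 and 96.4 CPM in shIGF2BP3. The groups overlapped. The knockdown mean was 91.1% of control, with a log2 fold change of -0.13 (SE 0.15, adjusted p = 0.741 by edgeR). Without replicate 2 of shIGF2BP3 the log2 fold change was -0.006. Nearly all of its counts belonged to 1 isoform. ENST00000290341 held 99.6% of the gene's count in replicate 1 of shCtrl and every count in the other 3 libraries, and was at 121.3 and 111.7 CPM in shCtrl and 116.2 and 96.4 CPM in shIGF2BP3 (log2 fold change -0.11, SE 0.17, adjusted p = 0.981 by edgeR). Without replicate 2 of shIGF2BP3 its log2 fold change was 0.019. ENST00000431824, which ends 6206 bases earlier, had 17 counts in replicate 1 of shCtrl and 0 in the other 3, and it was not tested.

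IGF2BP2 (ENSG00000073792), the member linked to insulin secretion and type 2 diabetes, lies on the minus strand of chromosome 3 from 185643739 to 185825056. It was at 73.7 and 67.4 CPM in shCtrl and at 78.0 and 84.2 CPM in shIGF2BP3. Both shIGF2BP3 libraries were above both controls, as for 23.3% of the genes tested. The mean was 115.0% of control and the log2 fold change 0.20 (SE 0.13, adjusted p = 0.584 by edgeR). On FPKM the groups overlapped, at 19.5 and 16.0 in shCtrl against 19.5 and 18.8 in shIGF2BP3. A change was shown for neither paralog, which does not show that their levels were equal. RefSeq places the antisense RNA IGF2BP2-AS1 within IGF2BP2 and lists 5 pseudogenes of IGF2BP2 and IGF2BP3, and whether reads were shared with these copies was not tested.

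IGF2BP2 was the member with several abundant isoforms. In shCtrl, ENST00000382199 and ENST00000457616 averaged 7.39 ± 0.395 and 7.47 ± 2.03 FPKM (SD, n = 2), and ENST00000346192 averaged 2.50 ± 0.852 FPKM. Their spans differ little, since all 3 start within 44 bases of each other and the latter 2 end 236 bases before the first. Their exon content was not analysed here.

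ENST00000382199 was at 28.5 and 34.1 CPM in shCtrl and at 35.1 and 52.5 CPM in shIGF2BP3. Both knockdown libraries were above both controls, as for 17.5% of the transcripts tested, and the mean was 140.0% of control. Replicate 2 of shIGF2BP3 was the highest of the 4 libraries. The log2 fold change was 0.51 (SE 0.29, adjusted p = 0.889 by edgeR), and 0.19 without replicate 2 of shIGF2BP3. ENST00000457616 was at 33.2 and 24.9 CPM in shCtrl and at 32.0 and 21.2 CPM in shIGF2BP3, with overlapping groups and a log2 fold change of -0.11 (SE 0.34, adjusted p = 0.998 by edgeR). It changed sign when 1 library was left out, to 0.14 without replicate 1 of shCtrl and 0.16 without replicate 2 of shIGF2BP3. ENST00000346192 was at 11.1 and 7.56 CPM in shCtrl and at 9.94 and 10.5 CPM in shIGF2BP3, again with overlap (log2 fold change 0.14, SE 0.36, adjusted p = 0.996 by edgeR, and -0.13 without replicate 2 of shCtrl).

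The minor transcript ENST00000421047, whose start lies 3925 bases downstream, had 29 and 27 counts in shCtrl and 31 and 0 counts in shIGF2BP3. Here replicate 1 of shIGF2BP3 was at the control level and replicate 2 was at 0. Its log2 fold change of -0.76 (SE 1.89, adjusted p = 0.996 by edgeR) turned to 0.22 without that library, and without replicate 1 of shIGF2BP3 it was -7.69 with an unadjusted p of 0.016.

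The shares of the leading IGF2BP2 transcripts differed between replicates beyond counting error. ENST00000382199 made up 38.7% of the gene's count in replicate 1 and 50.6% in replicate 2 of shCtrl, with Wilson intervals of 36.9% to 40.6% and 48.6% to 52.7%. In shIGF2BP3 it made up 45.1% and 62.4%. ENST00000457616 had the opposite order, at 45.1% and 37.0% in shCtrl and 41.0% and 25.2% in shIGF2BP3. In both groups the library with more mitochondrial counts had the higher share of ENST00000382199, and the part of this in the shares was not tested. For IGF2BP2 as a gene the adjusted usage p was 1.0 by edgeR.

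**Figure D5:**
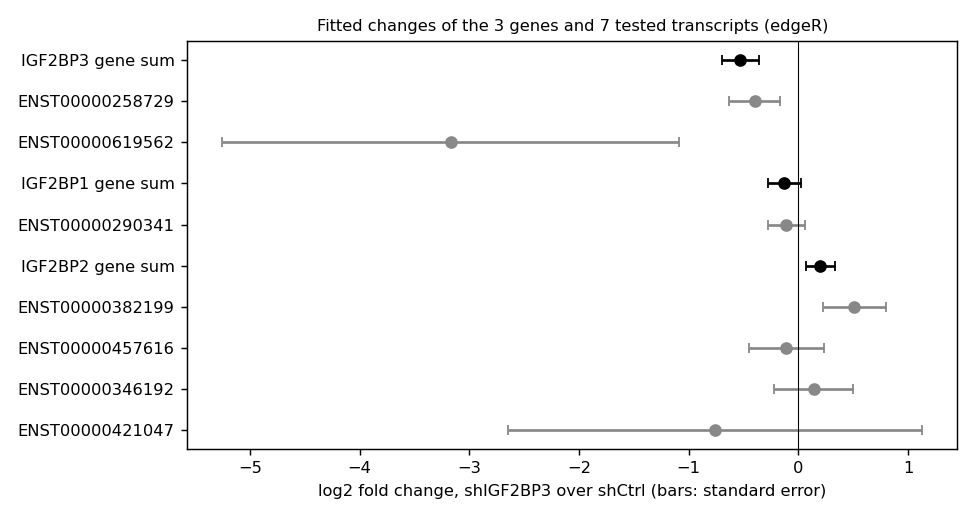
Fitted log2 fold changes of shIGF2BP3 over shCtrl with standard errors for the 3 gene sums (black) and the 7 transcripts tested (grey). The IGF2BP3 gene sum is at -0.53, its short transcript ENST00000619562 is at -3.17 with an SE of 2.08, and the gene sums of IGF2BP1 and IGF2BP2 are at -0.13 and 0.20.

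The call rule was a 1.5-fold difference or more together with an unadjusted p no higher than 0.05. By this rule edgeR with TMM called 0 of the 3 IGF2BP genes, against 5.32% of all genes tested (2.78% lower and 2.54% higher). It called 0 of the 7 tested IGF2BP transcripts, against 6.3% of all transcripts tested (3.79% lower and 2.5% higher). On p alone, 1 of the 3 genes passed, IGF2BP3, which was lower. Of all genes tested, 5.12% passed as lower and 5.43% as higher. In the same fit none of the 7 transcripts passed on p alone, against 3.88% of all transcripts as lower and 2.69% as higher. At an adjusted p under 0.05 it called 0 of 13379 genes and 0 of 37927 transcripts, while 1411 genes and 2493 transcripts had an unadjusted p no higher than 0.05. On the same adjusted threshold DESeq2 called 160 genes and 2662 transcripts and edgeR's exact test 101 and 1102, with no tested member of the IGF2BP family among them.

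Ratios between family members within a library need no scaling between libraries. The count ratio of IGF2BP3 to IGF2BP2 was 0.558 and 0.489 in shCtrl and 0.339 and 0.294 in shIGF2BP3. The groups did not overlap, and the log2 ratio was lower by 0.73 in the knockdown, at -1.66 ± 0.14 against -0.94 ± 0.14 (SD, n = 2). The count ratio of IGF2BP3 to IGF2BP1 was 0.338 and 0.295 in shCtrl and 0.227 and 0.257 in shIGF2BP3. These groups did not overlap either, and the log2 ratio was -2.05 ± 0.12 against -1.66 ± 0.14. The ratio of IGF2BP1 to IGF2BP2, added after the data were seen, was 1.65 and 1.66 in shCtrl and 1.49 and 1.15 in shIGF2BP3. Its groups did not overlap either, with a log2 difference of -0.34. The separation was thus not particular to the ratios that hold IGF2BP3. Each of the 3 comparisons gave p = 0.333 by a two-sided exact permutation test, also after Benjamini-Hochberg adjustment over the 3, which is the smallest p that 2 against 2 libraries allow.

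By FPKM, IGF2BP3 made up 22.6% and 20.4% of the family's message in shCtrl and 14.6% and 14.5% in shIGF2BP3. IGF2BP2 made up 45.4% and 46.9% in shCtrl and 52.5% and 57.3% in shIGF2BP3. The share of IGF2BP1 was 32.0% and 32.7% in shCtrl and 32.9% and 28.2% in shIGF2BP3, with overlap.

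The genes whose pattern over the 4 libraries was nearest to a member were found by Euclidean distance between log2 CPM values centred on each gene's mean, among 8675 named genes with a mean of at least 10 CPM. This is a description over 4 libraries. For IGF2BP3 they were SLC7A6OS (distance 0.0453), the centriolar gene POC1B (0.0541), the lysosomal peptide transporter ABCB9 (0.0613), the inositol monophosphatase IMPA2 (0.0698) and the sorting nexin SNX7 (0.0805). SLC7A6OS was at 25.5 and 20.9 CPM in shCtrl and 17.1 and 15.8 CPM in shIGF2BP3. For IGF2BP1 they were EXTL3 (0.0164), CAMSAP1 (0.0199), EXOC1 (0.0259), MYO9A (0.027) and VDR (0.0284). For IGF2BP2 they were DEPDC1B (0.0132), MINPP1 (0.0168), PRXL2C (0.0171), ESD (0.0258) and COIL (0.0267).

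Genes that work with or around the family were examined in 3 lists. Of the 11 protein partners of IGF2BP ribonucleoprotein granules, all tested, 0 were called by the same rule, against 5.32% of all genes tested. In direction, 4 were higher and 7 lower, and their median log2 fold change was -0.11 against -0.002 over all genes tested. The most abundant was YBX1, a cold-shock RNA-binding protein, at 1978 and 2533 CPM in shCtrl and 2195 and 2823 CPM in shIGF2BP3. The poly(A)-binding protein PABPC1 was at 947 and 920.0 CPM in shCtrl and 804 and 636 CPM in shIGF2BP3, with both knockdown libraries lower (log2 fold change -0.37, SE 0.16, adjusted p = 0.48 by edgeR). HNRNPU, a nuclear matrix RNA-binding protein, overlapped between the groups, at 604 and 555 CPM in shCtrl and 651 and 545 CPM in shIGF2BP3. MATR3, named after its values were seen, was matched by position to 1 identifier only (ENSG00000280987). Under this identifier it ran from 46.1 and 143.1 CPM in shCtrl to 147.4 and 4.21 CPM in shIGF2BP3, so its replicates differed more than its groups. Whether its reads were shared with another gene identifier was not tested. Its log2 fold change ran from -4.48 without replicate 1 of shIGF2BP3 to 0.72 without replicate 2 of shCtrl.

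Of 11 genes of the let-7 and oncofetal axis, 10 were tested and 1 was called, higher. Over all genes tested, 5.32% were called, 2.54% as higher. The median log2 fold change of the list was 0.11. On unadjusted p alone, 3 of the 10 passed, TRIM71 and AGO2 as higher and HMGA1 as lower. Of all genes tested, 5.43% passed on p alone as higher and 5.12% as lower. The called gene was TRIM71, a let-7 target and ubiquitin ligase of early development, at 0.638 and 0.354 CPM in shCtrl and 1.27 and 1.02 CPM in shIGF2BP3 (log2 fold change 1.20, SE 0.43, adjusted p = 0.472 by edgeR). It was not called with DESeq2, with library totals or with limma without the FPKM filter. Nor was it called without replicate 2 of shCtrl (log2 fold change 0.84) or without replicate 1 or 2 of shIGF2BP3 (1.03 and 1.35). HMGA1, a chromatin architectural protein, was at 1418 and 1603 CPM in shCtrl and 1121 and 953 CPM in shIGF2BP3. The groups did not overlap, with a log2 fold change of -0.54 (SE 0.16), an unadjusted p of 0.0155 and an adjusted p of 0.472 by edgeR. With library totals (-0.61) and limma (-0.6) it passed the fold threshold as well. In these fits the median of all genes was also lower, as given for IGF2BP3. HMGA2, its let-7-regulated relative, overlapped between the groups (log2 fold change 0.06, SE 0.14, and -0.021 with library totals). AGO2, the slicer Argonaute, was at 69.4 and 63.8 CPM in shCtrl and 84.3 and 84.9 CPM in shIGF2BP3 (log2 fold change 0.35, SE 0.13, adjusted p = 0.472 by edgeR).

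Of 11 genes of the IGF axis, 10 could be matched to a symbol, 9 were tested and 0 were called, against 5.32% of all genes tested. Their median log2 fold change was -0.03. The family's namesake IGF2 was the gene without a match. IGF2R, the receptor that clears IGF2, was at 119.6 and 105.4 CPM in shCtrl and 133.2 and 105.5 CPM in shIGF2BP3. IGFBP3, an IGF-binding protein, was at 56.9 and 29.6 CPM in shCtrl and 70.3 and 45.0 CPM in shIGF2BP3, with overlap. Without replicate 1 of shCtrl its log2 fold change was 0.97, past the call rule. IGF1R, the signaling receptor, was at 25.8 and 22.5 CPM in shCtrl and 27.2 and 29.1 CPM in shIGF2BP3 (log2 fold change 0.22, SE 0.16, adjusted p = 0.604 by edgeR).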

How the data were processed

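The authors deposited 1 table of estimated counts per transcript, as whole numbers without normalization, and 1 table of FPKM values per transcript and library. Their processing notes name HISAT2, Trimmomatic, bedtools, CASAVA and FastQC and the build GRCh38. The counter, annotation release and strand setting are not given in the sources used here, nor is how reads shared by isoforms were assigned. Estimated counts were summed over transcripts to genes. Positions were matched to the RefSeq annotation of GRCh38.p14, which named 18218 genes (shared part at least 0.5 of the joint length, lead of 0.2).

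Genes and transcripts were each fitted in R 4.3.3 by edgeR 4.0.16 (TMM, filterByExpr with a minimum count of 10 and total of 15, glmQLFit, glmQLFTest, prior count 0.125, Benjamini-Hochberg adjustment over the table), and usage with diffSpliceDGE. Both levels use library sizes from the gene fit for printed CPM. The common coefficient of variation was 22.8% for genes and 85% for transcripts. P-values measure the spread between these libraries. Alternatives were DESeq2 1.42.0, limma 3.58.1 on log2(FPKM + 1) and log2(FPKM + 0.1), edgeR's exact test, other scalings and filters, the replicate block and each library left out. Named genes were the family, called list members, the 3 most abundant members of each list and the 5 genes of nearest pattern. The steps were tested on simulated data with the same spread for genes and transcripts, well under the 85% found for transcripts. That test therefore does not show how the transcript and usage fits perform at the spread of these data. The members and lists were chosen with earlier results of these data known.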

Additional observations from a re-analysis of the deposited data

How the results depend on the processing

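With all 4 libraries, each gene, transcript and usage change of the family kept its direction and stayed at an adjusted p above 0.05 under every alternative that gave it. By the fold and p thresholds, however, calls were gained. The IGF2BP3 gene sum passed with library totals (-0.62), limma on log2(FPKM + 1) (-0.6, also without the FPKM filter) and on log2(FPKM + 0.1) (-0.68), and ENST00000619562 with limma on log2(FPKM + 1), with and without the FPKM filter (-1.05 in both). Leaving out 1 library (the lone library of a group is then assumed to vary like the others) gave the following ranges of log2 fold change. They were -0.68 to -0.36 for IGF2BP3, -0.27 to -0.006 for IGF2BP1 and 0.14 to 0.27 for IGF2BP2. For transcripts they were -0.56 to -0.21 for ENST00000258729, -9.86 to -2.13 for ENST00000619562, -0.23 to 0.019 for ENST00000290341, 0.19 to 0.79 for ENST00000382199, -0.42 to 0.16 for ENST00000457616, -0.13 to 0.48 for ENST00000346192 and -7.69 to 0.22 for ENST00000421047. Usage ran from -0.27 to 0.17 for ENST00000346192, from -7.98 to 0.051 for ENST00000421047 and from -9.39 to -1.59 for ENST00000619562. The sign turned for ENST00000290341, ENST00000457616 (in 2 fits), ENST00000346192 (level and usage) and ENST00000421047 (level and usage).

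On FPKM the share differences were 13.5 percentage points for ENST00000258729 and -13.3 for ENST00000619562, against 7.53 and -7.34 on counts. The FPKM scale weights the shorter transcript more by its construction.

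Of the background counts, 712 genes passed the fold and p thresholds, against 466 with limma on log2(FPKM + 1), 367 without the FPKM filter, and 583 to 1552 with 1 library left out (1552 without replicate 1 of shIGF2BP3). Higher genes made up 47.8% of these calls. Scaling by total counts gave 28.7%, limma 27.3% and 27.8% on log2(FPKM + 1) and log2(FPKM + 0.1), and limma without the FPKM filter 28.9%. At an adjusted p under 0.05 the 0 genes became 160 with DESeq2, 101 with the exact test, 17 without a low-count filter, 8 and 9 with limma on log2(FPKM + 1) and log2(FPKM + 0.1), and 0 to 84 with 1 library left out. Transcript calls were 2388 and 0, against 4770 and 2662 with DESeq2, 1102 adjusted with the exact test, and 2527 to 4542 with 1 library left out. Usage calls were 1494 and 275, against 3494 and 59 without a low-count filter, 37 adjusted with 10 counts in every library, and 2121 to 3133 and 13 to 134 with 1 library left out. The granule partner list had 1 call with limma on log2(FPKM + 0.1) and 0 to 2 with 1 library left out, the let-7 list 0 with DESeq2 and 0 to 3, and the IGF list 0 to 2. Of the other named genes, HNRNPU reversed to -0.032 on library totals. By limma it was at -0.15 for a pseudocount of 1, filtered or not, and at -0.16 for 0.1. HMGA2 reversed to -0.021 on library totals and to -0.017 in the 3 limma fits. With 1 library left out, HNRNPU ran from -0.081 to 0.17, YBX1 from -0.039 to 0.34, MATR3 from -4.48 to 0.72, HMGA2 from -0.021 to 0.16 and IGF2R from -0.084 to 0.24. The median log2 fold change of all genes went from -0.002 in the main fit to -0.081 on library totals. With limma it was -0.07 and -0.081 for pseudocounts of 1 and 0.1, and -0.026 without the FPKM filter. The cause of these shifts was not tested.

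With the replicate block the log2 fold change of IGF2BP3 was -0.53 (adjusted p = 0.447 by edgeR), and 40 transcripts were called in usage at an adjusted p under 0.05. Lower transcripts past the fold and p thresholds went from 1438 to 916 with the block. No IGF2BP gene or transcript gained or lost a call with the block. Libraries with the same replicate number in the labels deviated together with a correlation of 0.052 over 13379 genes. With 2 libraries per group, this 1 value cannot show whether they share a batch. The block and this value pair libraries by the labels, and the header of the count table numbers the shIGF2BP3 libraries differently.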
